A study of Homo sapiens with 4 samples.

Results

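Interferon-stimulated genes are the genes that cells switch on when interferon binds its receptor. In the textbook pathway, cytosolic and endosomal sensors of foreign nucleic acid lead to secretion of interferon, the receptors signal through the kinases JAK1 and TYK2, and a transcription factor that contains IRF9, called ISGF3, binds interferon-stimulated response elements in target promoters. Many of the products block viral replication, and several of these genes also respond to other factors such as p53, IRF1 or NF-κB. In glioma cells the family is read as a sign of interferon signalling.

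The 34 members are a list of well-known interferon-stimulated genes given by symbol. The rule uses no measured value, but the list was drawn up with earlier results of these data known. A member was measured where a probe set of the array named it and no other gene, and its value is that of the probe set with the highest mean log2 signal. This held for 32 of the 34, among 18132 genes measured in all. USP18, a protease that removes ISG15 from proteins, is named only on a probe set shared with other genes, and STAT2 was not analysed here.

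The cells were U87MG, a long-established human glioblastoma line, grown in medium with serum and harvested after 24 h. The control received DMSO, a second culture 10 µM mycophenolic acid (MPA, an inhibitor of IMP dehydrogenase and so of guanine nucleotide synthesis), another 100 µM guanosine (a nucleoside from which cells can salvage guanine nucleotides), and the last both compounds. Total RNA of each was read on 1 Affymetrix PrimeView array, so there were 4 arrays and no replicates. Every value below is a difference between arrays with no spread between cultures and no p-value. The deposited signals come from RMA, which normalises the arrays to each other, and a probe set's signal is on a scale of its own, so levels are compared between arrays and not between genes.

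A signal of 63.0, the median of all non-control values (5.98 on the log2 scale), served as a floor for dim genes. Of the 32 measured members, 22 were at or above it on all 4 arrays, 3 (IFIT2, ISG20 and MX2) on the MPA array only, and 7 on none. Members below it everywhere were MX1, OAS1, OAS3, IFIH1, BST2, RSAD2 and XAF1. Because IFIT2, ISG20 and MX2 entered through the MPA array alone, they had to be higher there. For each comparison they enter, the 1.5-fold counts and the median are also given without them. The arrays correlated with each other at r = 0.988 to 0.998 over all probe sets. All 6 measured glioma and mesenchymal markers were at or above the floor, among them vimentin (VIM), with a summed signal between 43646.4 and 45087.8; one of them, the neural progenitor marker NES, was at least 1.5-fold lower with MPA, at 142.3 against 220.7 in the control (-0.63). The leukocyte marker PTPRC was below the floor on all arrays, with signals of 10.3 to 11.7, and so were both measured markers of plasmacytoid dendritic cells, the main interferon-producing cells of blood. The leukocyte list summed to 4956.6 with MPA and 4179.7 to 4398.0 on the other arrays; 3 of its 8 measured genes were above the floor, and most of the sum was HLA-DRA.

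Promoter sequence shows what many of the members share. Their choice by name did not read sequence, but it took well-known interferon-stimulated genes. The shares below therefore describe the list and are not independent evidence. RefSeq windows (GRCh38.p14) running from 250 bases before to 50 bases after a start site were found for 26 of the 34 genes. The core of the interferon-stimulated response element (ISRE) (the letters GAAA, any 2 bases, then GAAA, on either strand) occurred in the windows of 17 of these 26 (65.4%), against 4.38% of 27305 genes with a window. The core of the gamma-activated sequence (GAS) (TTC, any 3 bases, then GAA, the same on both strands) occurred in 8 of 26 (30.8%) against 9.38% of genes; the cores can overlap each other. IFIT2, MX2, OAS2, OASL, IRF7, TRIM22, USP18 and GBP2 had no window. The 60-base stretches below lie before the start site, on the strand of the gene and 5′ to 3′, with the motif in capitals. Those with an ISRE core are shown because the same element stands before genes whose MPA signals were above control and genes whose signals were below it. The first is from the ubiquitin-like modifier gene ISG15, with overlapping ISRE cores (chr1:1013365-1013424, plus strand), and the next is from IFIT1 (chr10:89392495-89392554, plus strand).
ISG15: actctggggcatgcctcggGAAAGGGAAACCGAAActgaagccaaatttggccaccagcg
IFIT1: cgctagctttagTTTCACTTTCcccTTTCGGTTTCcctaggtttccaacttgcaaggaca
IFI6 also holds 2 ISRE cores in its stretch (chr1:27672251-27672310, minus strand), as does IFIT5 (chr10:89414508-89414567, plus strand), whose MPA signal lay below control.
IFI6: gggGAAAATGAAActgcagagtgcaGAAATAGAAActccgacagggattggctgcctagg
IFIT5: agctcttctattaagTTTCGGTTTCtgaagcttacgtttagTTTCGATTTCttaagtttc
IFI44 (chr1:78649729-78649788, plus strand) and its neighbour IFI44L (chr1:78620350-78620409, plus strand) are shown as the pair that was lowest with MPA among neighbouring members above the floor.
IFI44: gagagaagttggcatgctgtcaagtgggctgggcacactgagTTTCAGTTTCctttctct
IFI44L: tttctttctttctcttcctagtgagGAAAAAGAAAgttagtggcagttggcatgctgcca
IRF9 (chr14:24161177-24161236, plus strand) and IFI35 (chr17:43006724-43006783, plus strand) had a GAS core and no ISRE core in the window.
IRF9: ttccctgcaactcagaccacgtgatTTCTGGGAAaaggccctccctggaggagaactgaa
IFI35: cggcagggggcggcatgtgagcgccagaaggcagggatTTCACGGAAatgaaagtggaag

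MPA against control asks how these genes stood in cells whose guanine nucleotide synthesis was blocked. TRIM22 stood far above control, IFIT1, IFI6 and IRF9 were between 1.5-fold and 2-fold higher, IFI44 was lower, and the others that were above the floor on both arrays lay within 1.5-fold. Of 25 members compared, 5 were at least 1.5-fold higher by the measured signals (the fifth, MX2, from a control reading below the floor), beside a background of 5.31% of 11204 genes, and 1 was at least 1.5-fold lower, beside 7.31% of genes. At 2-fold the counts were 1 and 0, against 1.69% and 1.4% of genes. The members' median log2 difference was 0.22 and that of all genes 0.01, with 20 of 25 members above 0 against 50.8% of all genes. Among the 22 members whose mean over the 4 arrays reached the floor, which leaves out IFIT2, ISG20 and MX2, 17 lay above 0, the median was 0.17, 4 were at least 1.5-fold higher and 1 lower; of the 10821 genes that pass the same rule, 4.96% were higher and 7.49% lower.

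**Figure D1:**
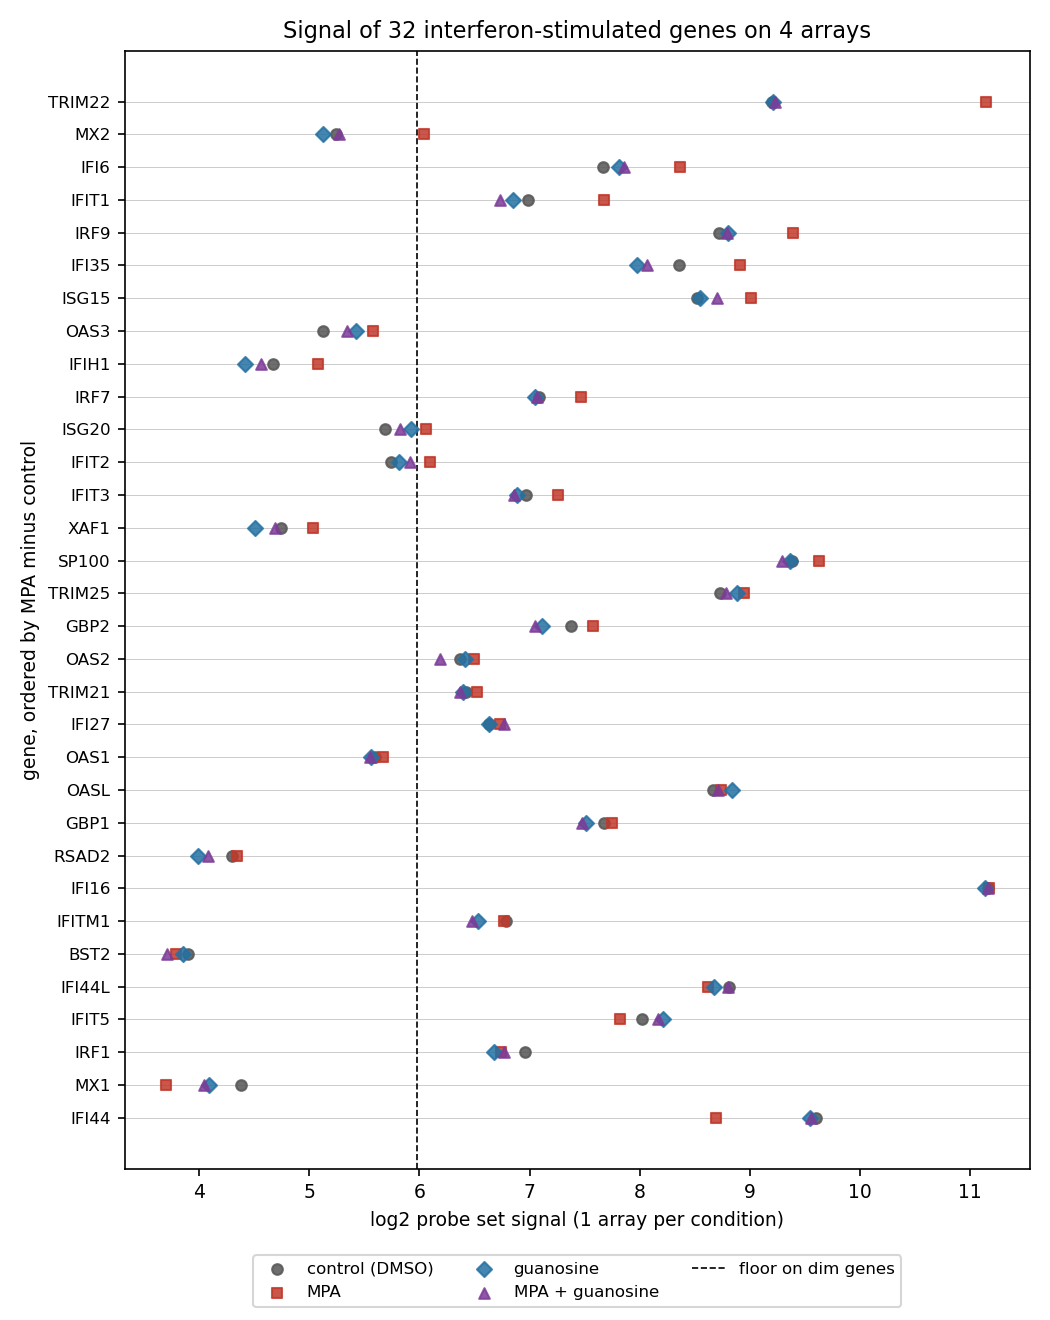
The log2 signal of 32 interferon-stimulated genes (rows, ordered by MPA minus control) on the control, MPA, guanosine and MPA + guanosine arrays, 1 array each; the dashed line is the floor of 5.98. The MPA point of TRIM22 stands 1.95 to the right of its control point and that of IFI44 0.92 to the left, while the other 3 points of both genes nearly coincide.

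The transcription factors come first in the pathway. IRF9, the DNA-binding part of ISGF3, gave a signal of 670.7 with MPA, and 421.1, 444.8 and 442.2 on the control, guanosine and combined arrays. The MPA array was thus 0.67 above control on the log2 scale, and the other 3 arrays spanned only 0.08. All 4 probe sets of IRF9 were higher with MPA, by 0.35 to 0.67; the median of its probe sets gave 0.42, below 1.5-fold. IRF7, which drives the later wave of interferon production, read 176.8 with MPA against 136.3, 132.5 and 134.1 in the control, guanosine and combined arrays, a difference from control of 0.38. IRF1, an early interferon-gamma target, went the other way on both of its probe sets above the floor: its signal was 124.1 in the control, 106.7 with MPA, 102.7 with guanosine and 109.0 with both, so that the control was the highest of the 4.

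Of the nucleic acid sensors among the members, only IFI16 reached the floor. IFI16, a nuclear DNA sensor, stayed between 2260.5 and 2311.4 on all 4 arrays. The largest difference of this probe set in any comparison was 0.02. A dimmer probe set of IFI16 read 427.4 in the control, 427.8 with MPA, 482.8 with guanosine (0.18 above control) and 441.6 with both. IFIH1, which encodes the RNA sensor MDA5, was below the floor throughout, at 25.5 in the control and 33.8 with MPA.

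TRIM22, a ubiquitin ligase that restricts several viruses and is known as a p53 target, was the member furthest from control. Its signal was 589.9 in the control, 593.9 with guanosine, 599.7 with both compounds and 2278.4 with MPA, 3.86-fold higher with MPA than in the control. The other 3 arrays lay within 0.02 of each other on the log2 scale. All 6 of its probe sets were higher with MPA, by 1.51 to 2.38; the probe set at 2.38 was below the floor in the control, at 31.6, and the other 5 were at 1.51 to 2.27. Beside it, the p53 target CDKN1A read 4961.4 with MPA and 1649.4 in the control, a difference of 1.59. Whether p53 had a part in either difference was not tested. The TRIM22 relatives differed less: TRIM21, an intracellular antibody receptor, by 0.11, and TRIM25, a ligase that acts on the RNA sensor RIG-I, by 0.22. ISG15, which is attached to other proteins as ubiquitin is, had signals of 366.9 in the control, 515.1 with MPA, 375.0 with guanosine and 415.7 with both, so that MPA was highest by 0.49 over control, short of 1.5-fold. In the list of interferon genes known as p53 targets, all 4 genes above the floor were higher with MPA (TRIM22, IRF9 and ISG15, and IRF5 by 0.20), with a median of 0.58. The fifth, the double-stranded RNA receptor gene TLR3, read 44.9 with MPA and 20.5 to 22.9 elsewhere, all below the floor. Among all genes compared, 50.8% were higher with MPA and the median was 0.01. TRIM22, IRF9 and ISG15 are members already counted above, so the list adds little to them. The list was written with earlier results of these data known, so its direction is a description and not independent evidence.

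**Figure D2:**
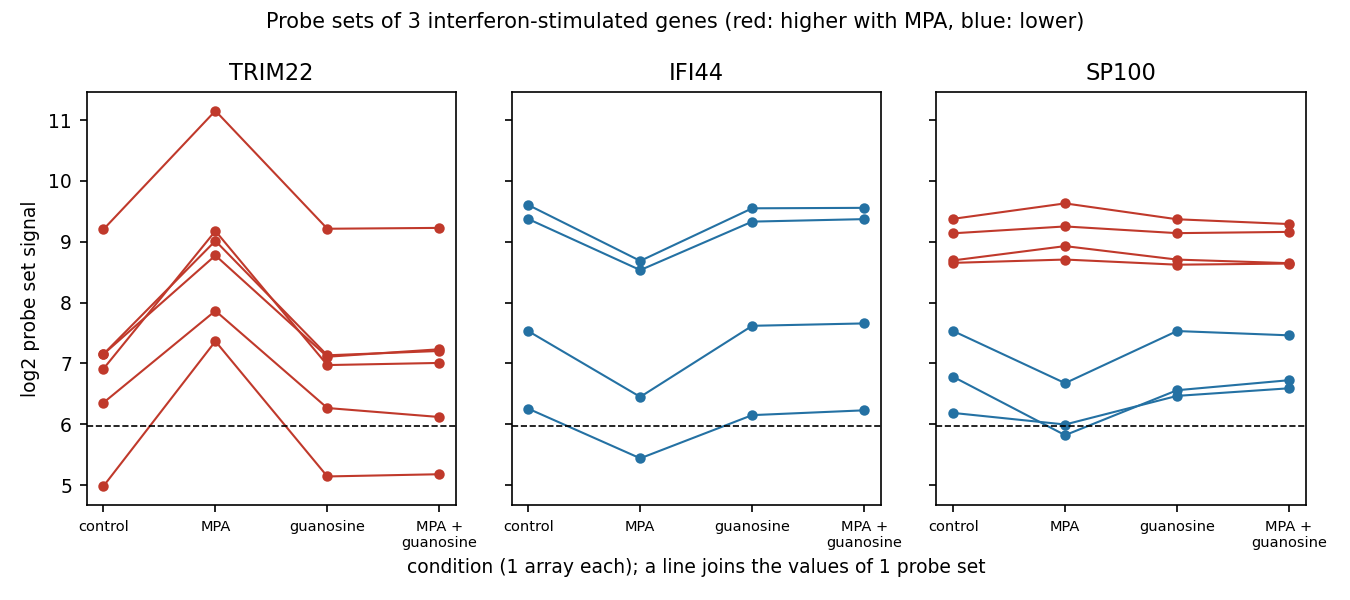
Log2 signal of every probe set that reached the floor on 1 or more arrays for TRIM22, IFI44 and SP100 (y axis) across the 4 conditions (x axis, 1 array each); each line is 1 probe set and the dashed line is the floor. All 6 TRIM22 lines peak with MPA, all 4 IFI44 lines dip there, and SP100 has 4 lines higher with MPA and 3 lower.

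The IFIT proteins bind foreign RNA ends and lie in 1 cluster of genes. IFIT1, its best-known member, had signals of 127.3 in the control, 115.1 with guanosine, 106.5 with both compounds and 205.2 with MPA, 1.61-fold higher with MPA than in the control; 1 probe set measured it. IFIT3, which stabilises IFIT1 on RNA, was 0.30 above control with MPA. IFIT5 differed by -0.21, with 225.2 on the MPA array and 260.4 in the control. IFIT2 read 68.4 with MPA and 53.4 in the control, below the floor, at least 1.09-fold higher when set against the floor. IFIT1 and IFIT5, next to each other among the measured genes and both with ISRE cores, therefore lay on opposite sides of control.

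The OAS enzymes make the 2′-5′ oligoadenylate that activates RNase L, and the OAS genes above the floor lay close to control. OAS2 differed by 0.13 with MPA and OASL, a relative that does not make the oligoadenylate in humans, by 0.07. OAS1 read 48.5 in the control, 51.0 with MPA, 47.0 with guanosine and 46.7 with both, below the floor on every array, as was OAS3 (34.9 to 47.9).

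Among the large GTPases, MX2, a restriction factor of HIV, gave 65.8 with MPA, and 37.8, 34.8 and 38.6 on the control, guanosine and combined arrays. The measured difference from control was 0.80, but only the MPA array reached the floor, and against the floor MX2 was at least 1.04-fold higher. Its neighbour MX1, the classical influenza restriction factor and the usual marker of an interferon response, read 20.9 in the control, 13.0 with MPA, 17.0 with guanosine and 16.4 with both, all below the floor. The guanylate-binding proteins GBP1 and GBP2, targets mainly of interferon-gamma, differed by 0.07 and 0.20 with MPA. For GBP2 a second probe set, which reached the floor on the MPA array only, differed by 0.93.

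The IFI genes held members on both sides of control, among them the lowest. IFI6, a small membrane protein that opposes cell death and flavivirus replication, read 203.6 in the control, 225.0 with guanosine, 232.9 with both compounds and 330.3 with MPA, 1.62-fold higher with MPA than in the control, on 1 probe set. IFI35, which has a leucine zipper and binds the interferon-induced protein NMI, read 482.3 with MPA and 328.9 in the control, and was lower than control on the other arrays, at 252.8 with guanosine and 268.5 with both; its difference from control was 0.55, just under 1.5-fold, and 0.55 and 0.56 on its 2 probe sets. IFI44, whose product is found in the cytosol and whose role is less settled, read 778.3 in the control, 749.7 with guanosine, 753.6 with both compounds and 411.7 with MPA, 1.89-fold lower with MPA than in the control. All 4 of its probe sets above the floor were lower with MPA, from -1.08 to -0.81 (the latter from 43.4 on the MPA array, below the floor), while 2 dimmer ones, with signals of 14.7 to 19.3, were slightly higher. IFI44L, its paralogue and neighbour, was at -0.19, and at -0.44 on its lowest probe set. IFI27 differed by 0.10.

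Of the remaining effectors, SP100 is a scaffold of nuclear PML bodies that is made in several splice forms. It was the single member whose probe sets above the floor split in MPA against control. Its brightest probe set read 792.9 with MPA, and 665.0, 661.7 and 626.6 on the control, guanosine and combined arrays (0.25 for MPA against control), and 3 others were also higher. A dimmer probe set read 102.2 with MPA against 185.2 in the control (-0.86), another 56.5, below the floor, against 109.9 (-0.96) and the dimmest of the 3 read 63.8 against 72.8 (-0.19). Which transcripts each probe set reads was not examined. Of 13 members with more than 1 probe set above the floor, the other 12 had all of them on 1 side of control with MPA. The dimmer GBP2 probe set and the dimmest of TRIM22 reached the floor on the MPA array only, so they had to be higher there. Those of IFI16 and IFITM1 lay within 0.02 of control, so their side carries little. IFITM1, which hinders virus entry at membranes, differed by -0.02, and the exonuclease gene ISG20 read 66.9 with MPA and 51.8 in the control, the latter below the floor. BST2 (tetherin), RSAD2 (viperin) and the apoptosis-linked XAF1 had signals of 13.1 to 32.6 over all arrays, so no difference could be read for these widely used interferon markers.

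Guanosine against control, and both compounds against control, ask how the genes stood when guanosine was present. In neither did a member reach 1.5-fold (0 of 22 in each direction). The background in guanosine against control was 0.339% of 10919 genes higher and 0.11% lower, and in both against control 0.421% of 10931 higher and 0.137% lower. The medians were -0.02 and -0.03, with members ranging from -0.38 to 0.19 and from -0.33 to 0.19. The lowest members were IFI35 with guanosine (-0.38), and GBP2 (-0.33) and IFITM1 (-0.31) with both. These comparisons share the control array. IFIT5 was the highest with guanosine, at 0.19, and IFI6 with both, at 0.19. A second IFIT5 probe set above the floor went the other way with guanosine, at -0.19.

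The array of both compounds set against guanosine alone shows the MPA difference in cells supplied with guanosine. None of its arrays enters MPA against control. No member reached 1.5-fold (0 higher and 0 lower of 22), where 0.0% of 10861 genes were that much higher and 0.0184% lower. The median was -0.02, and members lay between -0.22 (OAS2) and 0.15 (ISG15). TRIM22 differed by 0.01 here and by 1.95 without guanosine; IFI44 differed by 0.01 and by -0.92; IFIT1 by -0.11 and by 0.69; IFI6 by 0.05 and by 0.70; and IRF9 by -0.01 and by 0.67. Subtracting the one MPA difference from the other gave a median of 0.32 over the 25 members, against -0.01 over 11272 genes, and 5 members had a value of at least 1.5-fold above and 1 below 0, beside 5.36% and 8.28% of those genes. Without IFIT2, ISG20 and MX2 the median was 0.29 over 22 members, with 4 above and 1 below by that margin, beside 4.94% and 8.42% of 10821 genes. With 1 array a condition this interaction has no test.

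**Figure D3:**
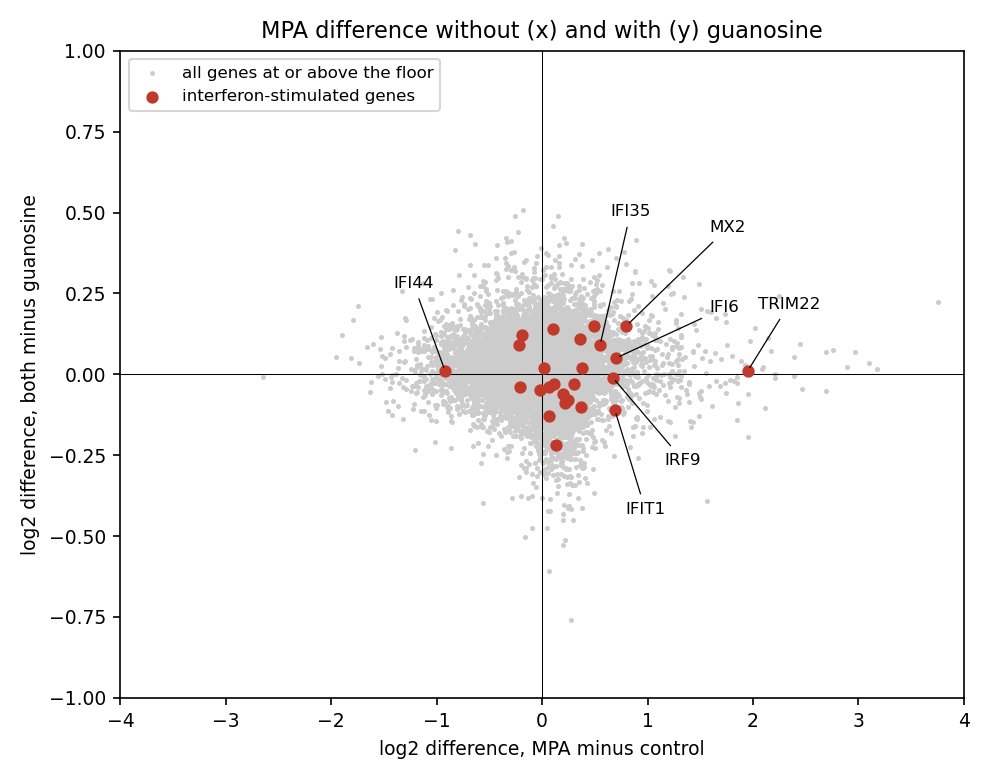
Each point is a gene: the x axis is the log2 difference MPA minus control, the y axis the log2 difference both minus guanosine; 25 interferon-stimulated genes are red and all other genes that reached the floor on 1 or more arrays grey. The red points spread from -0.92 to 1.95 along x and only from -0.22 to 0.15 along y.

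Both compounds against MPA asks what added guanosine did in MPA-treated cells; it shares the MPA array with MPA against control, so the values lean the opposite way by construction. TRIM22 was 3.80-fold lower with both than with MPA alone, IFIT1 1.93-fold, IFI35 1.80-fold and IRF9 1.52-fold lower, and IFI44 was 1.83-fold higher. MX2 was lower by a measured 0.77, from a signal barely above the floor. In all, 5 of 25 members were at least 1.5-fold lower, against 4.77% of 11215 genes, and 1 was at least 1.5-fold higher, against 8.47%. Without IFIT2, ISG20 and MX2 the counts were 4 lower and 1 higher of 22, against 4.32% and 8.6% of 10821 genes, and the median was -0.30. IFI6 differed by -0.50 and ISG15 by -0.31, both short of 1.5-fold. Across the 4 arrays, MPA alone was the highest for 23 and the lowest for 4 of all 32 members measured, including the 7 dim ones. Of the 25 others, it was the highest for 18 and the lowest for 3. The 18 include IFIT2, ISG20 and MX2, for which the MPA array had to be the highest. For all 11272 genes at or above the floor somewhere, the MPA array was the highest for 41.3% and the lowest for 41.7%.

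The rest of the interferon pathway, from lists written out for this purpose, gives the setting. No interferon gene was at or above the floor: of 17 measured ligand genes, IFNB1 read 15.7 to 20.7 and IFNA14, the nearest to the floor, 36.5 to 43.6. The receptor genes IFNAR1 (492.6 in the control and 486.5 with MPA) and IFNAR2 (171.2 and 202.6) and the kinase genes JAK1 (1628.6 and 1545.0) and TYK2 (531.2 and 462.4) were above it on all arrays. Of 9 receptor, kinase and STAT genes, 1 was at least 1.5-fold higher with MPA, namely STAT3, a mediator of interleukin-6 signalling, at 829.0 against 548.0 in the control; among all genes compared, 5.31% were that much higher and 7.31% lower, which is the background for these lists too. Among 5 negative regulators none passed 1.5-fold (0 of 5), and SOCS3 was lowest at -0.45.

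In the sensing list, 0 of 11 genes were at least 1.5-fold higher and 1 was lower: TRAF3, an adaptor between sensors and interferon production, read 495.7 with MPA and 775.5 in the control. RIGI differed by -0.13, the mitochondrial adaptor MAVS by 0.45, the kinase TBK1 by 0.08 and IRF3 by 0.18, and the DNA-sensing adaptor STING1 was below the floor on all arrays (28.7 to 36.1). Of 25 other interferon-induced genes compared, 2 passed 1.5-fold upward with MPA and 2 downward, beside 5.31% and 7.31% of all genes, and their median was -0.04. The higher ones were HERC5, the ligase that attaches ISG15, at 338.2 with MPA against 185.0 in the control, and DDX60L, at 228.3 against 136.8. The lower ones were PNPT1, a mitochondrial RNA exonuclease, at 508.2 against 811.3, and ISG20L2, a nucleolar relative of ISG20, at 264.0 against 457.9. EIF2AK2, which encodes the RNA-activated kinase PKR, differed by -0.23. With both compounds against guanosine, none of these lists had a gene past 1.5-fold in either direction (0 genes).

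**Figure D4:**
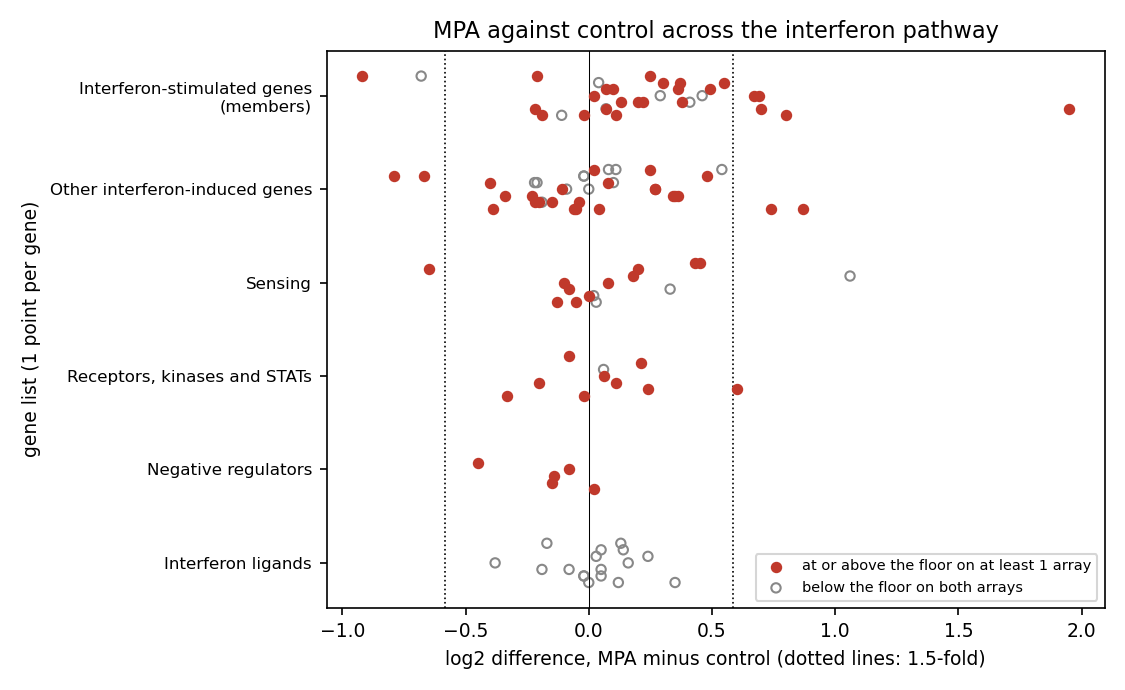
Log2 difference MPA minus control (x axis) for the genes of 6 lists of the interferon pathway (rows, 1 point per gene, spread vertically for legibility). Filled points reached the floor on 1 or both of the arrays compared and open points on neither; the dotted lines mark 1.5-fold. TRIM22 at 1.95 is the point furthest right, and all ligand genes are open points.

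Other readings that differed between the arrays stand beside these results. Added poly-A spike-in transcripts (24 probe sets) had a median log2 difference from control of -0.24 on the MPA array, 0.22 with guanosine and 0.24 with both. The epithelial marker EPCAM read 102.2 with MPA and 52.9 to 55.5 elsewhere; 2 of 3 epithelial markers and 2 of 3 endothelial markers reached the floor on at least 1 array, and their lists summed to 191.8 and 213.5 with MPA against 134.5 and 181.6 in the control. The glioma marker NES was lower with MPA, as given above. Their part in the members' differences was not tested. Fewer cells expressing a gene and less RNA per cell cannot be told apart in such bulk samples.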

How the data were processed

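U87MG RNA from 4 conditions was read on 1 PrimeView array each, and groups follow the labels. Deposited values are linear intensity per probe set, made by RMA per the labels; its software, settings and annotation: not given in the sources used here. Of 49395 probe sets, 44988 non-control ones carried 1 gene symbol in the platform table, 1832 carried several and 2569 were not listed. Log2 values were taken, a gene was its probe set with the highest mean, and it entered a comparison when the brighter array reached the floor of 63.0. Differences were counted at 1.5-fold and 2-fold on measured values in 5 comparisons; counting was tested on simulated data. With 1 array per condition there is no test, and precision is limited by the number of arrays. Coordinates are given for RefSeq promoter windows only. Values were printed for members at least 1.5-fold different in any comparison, the 5 brightest and a set of defining members; others are given briefly. The members, lists and rules were chosen with earlier results of these data known. Alternatives were other floors, the median of probe sets, _x_at probe sets last, cyclic loess (limma 3.58.1, R 4.3.3, 3 iterations) and median centring. Python 3.11.15, numpy 2.4.6 and pandas 2.3.3 were used.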

Additional observations from a re-analysis of the deposited data

Results flagged for a closer look

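For 3 members the MPA difference had opposite signs without and with guanosine and the values were at least 1.5-fold apart; the difference was not tested, since each condition had 1 array. IFIT1 stood at 0.69 without and -0.11 with guanosine, 0.80 apart on the log2 scale. IRF9 stood at 0.67 and -0.01, 0.68 apart. IFI44 stood at -0.92 and 0.01, a value of -0.93. In each case the value with guanosine is close to 0, so its sign carries little.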

How the results depend on the processing

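Of 112 recomputed medians and counts (16 results under 7 alternatives), 105 stayed within 1.5 times (counts) or within 0.097 on the log2 scale (medians), the SD over genes of the difference between the guanosine and combined arrays; none (0) of the medians further than that from 0 changed sign. Medians near 0 did with the floor at the 75th percentile: guanosine against control gave 0.01 in place of -0.02, both against guanosine 0.01 in place of -0.02, and both against control 0.02 in place of -0.03. For MPA against control, members at least 1.5-fold higher numbered 5 of 25 in the main run, beside 5.31% of all genes. With the floor at the 75th percentile they numbered 3 of 12, beside 5.48%, and with the median of probe sets 3 of 21, beside 4.78%. Lower ones numbered 1 of 25 in the main run, beside 7.31%. With no floor, where MX1 enters, they numbered 2 of 32, beside 4.69%. With the median of probe sets, where SP100 stood at -0.86, they numbered 2 of 21, beside 6.88%. For both against MPA, higher members numbered 1 of 25 in the main run, beside 8.47%, and 2 of 21 with the median of probe sets, beside 7.86%. Lower ones numbered 5 of 25 in the main run, beside 4.77%, and 3 of 12 with the 75th percentile floor, beside 4.49%. The median MPA difference without less that with guanosine was 0.20 in place of 0.32 with the median of probe sets. All 7 medians and counts that moved came from results that use the MPA-alone array. In the comparisons without that array, the 1.5-fold counts were 0 under every setting. Those counts make up part of the 105. The median of probe sets also gave MX2 0.46, IRF9 0.42 and IRF1 -0.01. The floor on the mean of the 4 arrays was chosen after seeing the data. No paired analysis was possible because each condition has 1 array.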

Other observations

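The ISRE core was also looked up in the promoters of all genes. Among the 355 genes compared between MPA and control whose RefSeq window held it, 8.17% passed 1.5-fold upward and 5.92% downward, with a median log2 difference of 0.02. Among 8903 genes without it, 5.07% passed it upward and 7.63% downward. Of the members at or above the floor, 12 had the core, with a median of 0.10 and a range from -0.92 to 0.70. ISG20, among these 12 at 0.37, reached the floor on the MPA array only and so had to be higher there. The 12 were not summarised without it. Another 6 members had a window without the core, with a median of 0.24 and a range from -0.22 to 0.67. TRIM22 and MX2 had no window and are in neither set.

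By brightness, 11 members with a mean log2 signal from 6 to 8 had a median MPA difference of 0.13, where all 4543 genes of that band had 0.06. The 10 members from 8 to 10 had 0.24, where 4098 genes had -0.07. The 1 member at 10 or above, IFI16, had 0.02, where 2124 genes had -0.04. IFIT2, ISG20 and MX2 had means below 6 and were in no band.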
